A study of Mus musculus with 54 samples.

Results

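Nuclei of frozen mouse kidney were released by a pair of preparations that differ in their buffers and in how the nuclei were cleaned, and the 3 libraries of SN_FANS_1x2000g were set against the 3 libraries of SN_sucrose. Libraries were assigned to the groups by their labels alone. The contrast, the gene lists and the cell markers used below were chosen with earlier results of these data known. Counts of list members are therefore descriptions and not independent evidence. They are 6 of the 54 samples of the series and hold 51198 nuclei. All kidneys came from untreated wild type Balb/c females of 15 weeks that had been breeders, and within a group each library is 1 whole, flash frozen kidney of its own mouse. Whether a mouse gave a kidney to each group is not given in the sources used here. In SN_FANS_1x2000g (1x2000g below) the homogenate was strained at 30 µm and spun once at 2000 g, the pellet was taken up in wash buffer, and DAPI-stained nuclei were sorted by flow cytometry. In SN_sucrose (sucrose below) the lysis buffer also held DNase I, the wash buffer held more BSA and lacked the RNase inhibitor of the other, and the strained homogenate was spun at 2000 g. The nuclei in wash buffer were then mixed with a 1.8 M sucrose solution. This mix was spun at 3000 g over a 1.3 M sucrose cushion, with no sort. All 6 libraries used version 3 of the droplet chemistry. Sorting, DNase, wash buffer, cushion and kidneys differ together between the groups and cannot be told apart. The question was which transcripts and which classes of nuclei differ between the protocols.

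A nucleus holds unspliced transcripts, and transcripts that act there, such as Malat1 and RNAs kept at nuclear speckles. Short, spliced mRNAs of highly expressed genes lie mostly in the cytoplasm and at its mitochondria and ribosomes. When a frozen tissue is lysed, cytoplasmic RNA is set free, can stay attached to nuclei or enter droplets with them, and is removed to a different extent by washing, sorting or a density cushion. In kidney the proximal tubule is the most abundant epithelium, and it expresses genes of reabsorption and oxidative metabolism at very high levels.

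The libraries held 7560 to 9308 nuclei and 26142380 to 35170947 unique molecular identifiers (UMIs, counted transcript molecules). The median was 3847, 3731 and 3859.5 UMIs per nucleus in the 1x2000g libraries and 3475, 3108.5 and 3393 in the sucrose libraries. These groups did not overlap (1.15-fold, exact two-sided permutation p = 0.1, the smallest p that 3 against 3 can give). Nuclei of all 9 female libraries of this chemistry, the 3 of the SN_FANS_3x500g protocol, sorted after washes at 500 g, included, were clustered, and 15 classes were named from marker genes. Between 4.83 and 8.35% of the nuclei of the 6 libraries stayed unnamed, and 6.05 to 7.45% were marked as doublets and kept. Pairs of libraries shared 13 to 30 cell barcodes. Between 761 and 1017 genes are listed at 0 in a 1x2000g library and between 1236 and 1407 in a sucrose library.

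Over whole libraries, 912 of 17500 genes passed the test as higher in 1x2000g (percent called 5.21) and 1378 as higher in sucrose (percent called 7.87). The UMIs of a library were summed per gene and are given as counts-per-million (CPM), and a gene passed at an adjusted p of at most 0.05 in edgeR's quasi-likelihood test. The differences were mostly small, with a median size of 0.41 on the log2 scale among the genes higher in 1x2000g and 0.40 among those higher in sucrose. A log2 fold change of at least 1 beside the test, called strong below, was reached by 95 genes higher in 1x2000g (0.543%) and by 46 higher in sucrose (0.263%). Of the 95 genes, 47 are at 0 in every sucrose library and 90 lie below 10 CPM. By the paper, a gene was kept in a sample only if at least 10 of its nuclei showed it. Whether this filter set such zeros was not tested. A fitted fold change against 0 depends on the prior count and is no measure of size. With genes above 0 in all 6 libraries, a setting chosen after the data were seen, 54 and 47 genes were strong. Leaving out any 1 of the 6 libraries gave 284 to 459 genes higher in 1x2000g and 644 to 861 higher in sucrose, of which 29 to 83 and 31 to 56 were strong. A fit with fewer libraries also has less power, so a lower count of passing genes does not single out a library. With DESeq2 37 genes were strong and higher in 1x2000g. Of the genes that passed, 39.8% were higher in 1x2000g, and 54.2% when libraries were scaled by their totals alone. The genes described next have at least 10 CPM over the 6 libraries, save Hspa1b and C1qa. The groups stand apart for 6224 of the 17500 genes and for every gene that passed, so this adds nothing to a pass.

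**Figure D1:**
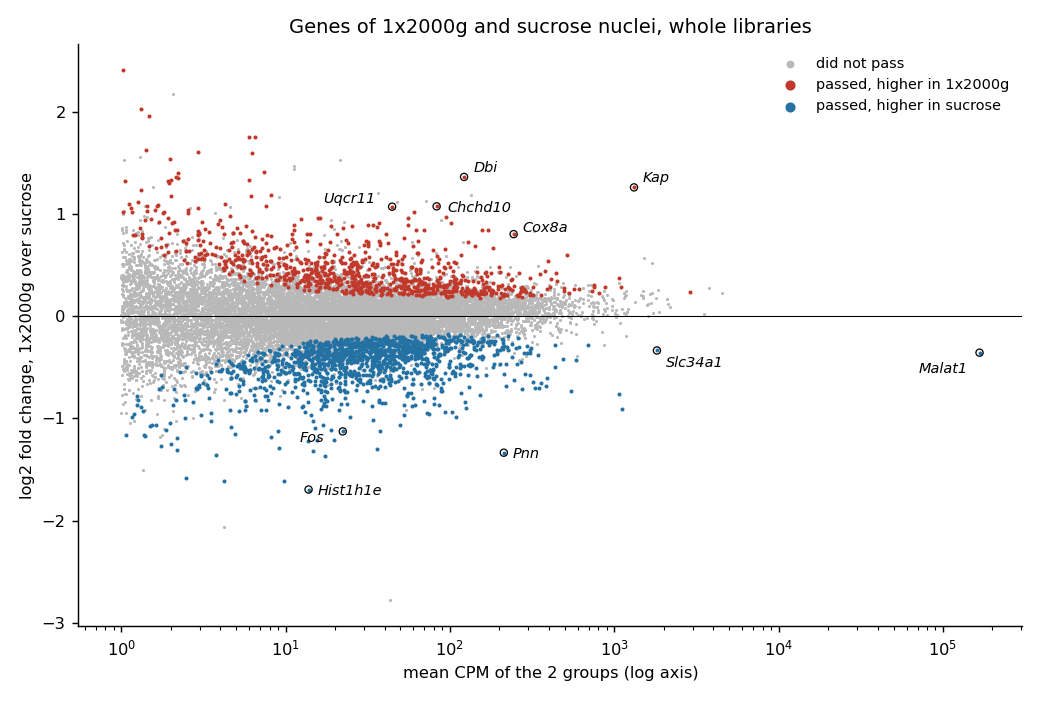
Log2 fold change of 1x2000g over sucrose against the mean CPM of the 2 groups (log axis), 1 point per gene with a mean of at least 1 CPM, coloured by the edgeR call. Of the genes marked, Dbi and Kap lie highest, Hist1h1e and Pnn lowest, and Malat1, the most abundant gene, lies at -0.36.

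Transcripts of small mitochondrial and tubular proteins led the genes higher in 1x2000g. The 5 strong genes of at least 10 CPM were Dbi, Kap, Chchd10, Uqcr11 and Uqcr10, raised by 1.02 to 1.36 on the log2 scale. Dbi encodes the acyl-CoA binding protein and lies at chr1:120113280-120121078 (GRCm38, minus strand). Its levels were 200, 127 and 203 CPM in the 1x2000g libraries and 65.4, 72.2 and 64.4 CPM in the sucrose libraries (log2 fold change 1.36, SE 0.18, adjusted p = 0.00455). Kap, the androgen-regulated kidney protein gene of the proximal tubule at chr6:133849851-133853762 (minus strand), had 2174, 1466 and 1974 CPM against 787, 828 and 683 CPM (1.26, SE 0.16, adjusted p = 0.00371). The groups of both genes stood apart, with the second 1x2000g library the lowest of its group. In the 3x500g libraries Kap had 288 to 369 CPM, below the level in all 6.

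Chchd10, of the mitochondrial intermembrane space, had 123, 103 and 115 CPM in 1x2000g and 53.1, 61.6 and 43.3 CPM in sucrose (1.07, SE 0.14, adjusted p = 0.00396). Uqcr11, a small subunit of complex III, had 70.3, 47.7 and 64.1 CPM against 29.1, 32.3 and 23.5 CPM (1.07, SE 0.17, adjusted p = 0.00966). Its partner Uqcr10 had 88.9, 65.2 and 89.6 CPM against 44.6, 41 and 31.7 CPM (1.02, SE 0.17, adjusted p = 0.00971). None of these groups overlapped. All 5 genes are short, with 584 to 1575 exonic bases, and in fresh cells of the same strain and sex each had a higher mean CPM than in 3x500g nuclei, by 1.38 (Kap) to 5.72 (Chchd10) on the log2 scale.

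Abundant transcripts of the proximal tubule were higher in 1x2000g for 10 of 29 measured genes and higher in sucrose for 2. These were 34.5 and 6.9% of the list, beside 5.21 and 7.87% of all genes. The median log2 fold change was 0.31, beside 0.01 over all genes tested. Beside Kap and Dbi, the 10 included Gpx1, S100a1, Ttc36, Guca2b, Fxyd2, Tmem27 and Calml4, raised by 0.44 to 0.84. Gpx1, a glutathione peroxidase, had 241, 166 and 199 CPM in 1x2000g against 106, 133 and 92.1 CPM in sucrose (0.84, adjusted p = 0.0232). Fxyd2, the gamma subunit of the sodium pump, had 638, 593 and 645 CPM against 425, 402 and 386 CPM (0.59, adjusted p = 0.00253). In both the groups stood apart. With single libraries left out in turn, the call was lost for Guca2b in 5 of 6 cases (all but the second 1x2000g library), for Gpx1 in 4 (all but the second of each group) and for Tmem27 without the third 1x2000g library, with adjusted p up to 0.0895.

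The exceptions among these transcripts were Slc34a1 and Miox. Slc34a1, the sodium phosphate transporter of the brush border, had 1547, 1696 and 1641 CPM in 1x2000g and 2094, 1959 and 1967 CPM in sucrose (-0.34, SE 0.05, adjusted p = 0.00944). Miox, the renal myo-inositol oxygenase, had 375, 449 and 423 CPM against 800, 546 and 674 CPM (-0.73, adjusted p = 0.0129). Lrp2, the long gene of megalin, with a span of 161726 bases, had 2010, 1736 and 1657 CPM against 1649, 1617 and 1295 CPM and did not pass (0.21, adjusted p = 0.284). The 10 transcripts higher in 1x2000g had a median of 1422 exonic bases in a span of 3912 bases, and the 17 that did not pass a median of 2414 in 22999. Summed over the list, the 1x2000g libraries held 14969 to 17634 CPM and the sucrose libraries 11692 to 14738 CPM.

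Of 20 abundant transcripts of the thick ascending limb and distal tubule, 2 were higher in 1x2000g and none passed as higher in sucrose (median 0.25), beside 5.21% over all genes in the first direction. They were Pvalb, a calcium-binding protein of the distal convoluted tubule (0.33, adjusted p = 0.033), and Wfdc2 (0.27, adjusted p = 0.0482). Pvalb lost its call without any 1 of the 6 libraries (adjusted p 0.0512 to 0.0968), and Wfdc2 without any but the third 1x2000g library (up to 0.138). The most abundant, Slc12a1, the sodium potassium chloride cotransporter, overlapped between the groups, with 2173, 2743 and 1794 CPM in 1x2000g and 2133, 1586 and 2311 CPM in sucrose (0.12, adjusted p = 0.689). Without the second library of either group its value turned below 0 (lowest -0.03).

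Of the 15 lists, the respiratory chain had the most members higher in 1x2000g. These nuclear genes encode the subunits of the electron transport complexes and of the ATP synthase, and 50 of 77 measured members were higher in 1x2000g and 1 was higher in sucrose. These were 64.9 and 1.3% of the list, beside 5.21 and 7.87% of all genes. The median log2 fold change of the list was 0.41. The members were also split by the start of the gene symbol, a rough guide to the complex that was not checked gene by gene. In this split 23 of 35 Nduf genes (complex I), 2 of 4 Sdh genes (complex II), 7 of 8 Uqcr genes (complex III), 7 of 11 Cox genes (complex IV) and 10 of 17 Atp5 genes (ATP synthase) were higher in 1x2000g. The Cox genes had the largest median (0.60) and the Sdh genes the smallest (0.22). All 11 Cox genes and all 8 Uqcr genes had a log2 fold change above 0, the members that did not pass included. Summed, the list held 5948, 5638 and 6082 CPM in the 1x2000g libraries and 4729, 4502 and 4363 CPM in the sucrose libraries, with no overlap.

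The clearest single member was Cox8a, with 320, 289 and 330 CPM in 1x2000g and 182, 178 and 167 CPM in sucrose (0.80, SE 0.07, adjusted p = 0.00133). Ndufa4 had 132, 103 and 145 CPM against 67, 69.1 and 54 CPM (0.97, adjusted p = 0.00808). Cox6c had 139, 109 and 150 CPM against 76, 67.7 and 63.8 CPM (0.91, adjusted p = 0.00582). The fitted folds of these 3 genes were 1.74 to 1.95, and no library of a group reached the other group. The member higher in sucrose was Atp5a1, the alpha subunit of the ATP synthase, with 206, 233 and 215 CPM in 1x2000g and 302, 284 and 295 CPM in sucrose (-0.46, SE 0.05, adjusted p = 0.00289). The 50 members higher in 1x2000g had a median of 1526 exonic bases and the 26 that did not pass 1801, and Atp5a1 has 3135.

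Cytosolic ribosomal protein genes have short and abundant mRNAs too. Of 83 genes, 11 were higher in 1x2000g and 3 higher in sucrose (13.3 and 3.61%, beside 5.21 and 7.87% of all genes). The median of 0.18 fell to 0.10 without the third sucrose library. The 11 had a median of 1684 exonic bases, the 3 higher in sucrose 1241 and the 69 that did not pass 1781. Rpl39 had 22.1, 16.1 and 24.7 CPM in 1x2000g and 11.3, 11.2 and 9.14 CPM in sucrose (0.96, adjusted p = 0.0135). The summed list had 3427, 3274 and 3740 CPM against 3116, 3223 and 2667 CPM, apart by a narrow gap. Of 25 ferritin, clusterin and other housekeeping transcripts, 3 were higher in 1x2000g (12.0%, beside 5.21% of all genes) and none passed as higher in sucrose. The median was 0.06, and -0.02 without the third sucrose library. Among the 3 was the polyubiquitin gene Ubb, with 256, 186 and 219 CPM against 111, 148 and 102 CPM (0.84, adjusted p = 0.021). Its call was lost without the first or the third library of either group (adjusted p up to 0.0741).

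Transcripts of splicing factors and nuclear speckle proteins were higher in the sucrose libraries. Of 29 measured genes 15 were higher in sucrose and 1 was higher in 1x2000g (51.7 and 3.45%, beside 7.87 and 5.21% of all genes). The median was -0.25. Pnn, which encodes the speckle protein pinin and lies at chr12:59066884-59073998 (plus strand), had 116, 130 and 123 CPM in the 1x2000g libraries and 298, 294 and 316 CPM in the sucrose libraries. By the fit it was 2.53-fold higher in sucrose (log2 fold change -1.34, SE 0.05, adjusted p = 0.000193), and the 3x500g libraries, at 111 to 134 CPM, lay at the level of 1x2000g. Pnn was thus set apart by the sucrose libraries, and Kap by all 3 protocols.

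The other members moved by less. Pnisr had 248, 257 and 256 CPM in 1x2000g against 396, 398 and 415 CPM in sucrose (-0.70, adjusted p = 0.000673). Srsf7, a splicing factor rich in serine and arginine, had 158, 180 and 174 CPM against 263, 270 and 267 CPM (-0.68, adjusted p = 0.000912). Son, a scaffold of the speckle, had 240, 258 and 249 CPM against 367, 348 and 372 CPM (-0.58, adjusted p = 0.00104), and Srrm2, the other scaffold, had 358, 386 and 360 CPM against 505, 480 and 543 CPM (-0.50, adjusted p = 0.00289). The spread within a group was small beside these differences. Srsf2 went the other way, with 423, 440 and 431 CPM against 354, 358 and 343 CPM (0.26, adjusted p = 0.0156, and 0.0408 to 0.0543 with single libraries left out, above the threshold without any 1 sucrose library). The 2 most abundant members, Rbm39 and Ddx5, overlapped between the groups and did not pass (-0.19 and -0.16).

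Malat1, the long noncoding RNA held at nuclear speckles (chr19:5795690-5802672, minus strand), was the most abundant transcript in every library. It had 152040, 140270 and 152100 CPM in 1x2000g and 182010, 183660 and 190980 CPM in sucrose (-0.36, SE 0.07, adjusted p = 0.0162). The call was lost without the first or second sucrose library (adjusted p up to 0.0935). A share this large takes part in the CPM of every other gene. Of 8 measured nuclear noncoding RNAs, Malat1 and Snhg11 were higher in sucrose and none passed as higher in 1x2000g. Snhg11, annotated as protein coding, had 679, 899 and 830 CPM against 1430, 1219 and 1332 CPM (-0.76, SE 0.10, adjusted p = 0.00409). The list's median was 0.03, and -0.03 without the first 1x2000g library. Gm42418 and Gm26917, lincRNA genes by the annotation, were named because they were called in several classes. Both were kept out of the clustering, and whether their reads come from other transcripts was not tested. Gm42418 had 816, 720 and 810 CPM in 1x2000g against 1505, 1526 and 1279 CPM in sucrose (-0.91, adjusted p = 0.00187). Gm26917 had 276, 249 and 278 CPM against 501, 460 and 317 CPM (-0.70, adjusted p = 0.0288). Gm26917 kept its call without the third sucrose library and lost it without any other (adjusted p up to 0.0885).

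The 10 strong genes of at least 10 CPM with the largest fold changes toward sucrose were Hist1h1e, 2310033P09Rik, Pnn, Nprl2, Gps2, Mir143hg, Ssbp4, Slc4a3, Fos and Zfp30, between -1.70 and -1.12. Hist1h1e, a linker histone gene of a single exon, had 8.36, 4.68 and 6.74 CPM in 1x2000g and 15.4, 25 and 22.6 CPM in sucrose (-1.70, SE 0.25, adjusted p = 0.00643). Gps2, a subunit of a nuclear corepressor complex, had 21.1, 20.7 and 21.8 CPM against 53.3, 51.6 and 48 CPM (-1.30, SE 0.07, adjusted p = 0.000312). Zfp30, a zinc finger gene, had 21.1, 27.1 and 23.9 CPM against 50.5, 50.8 and 51.4 CPM (-1.12, SE 0.08, adjusted p = 0.000673). Nprl2, of the complex that restrains growth signalling at the lysosome, had 7.78, 9.11 and 8.9 CPM against 20.9, 21.9 and 19.9 CPM (-1.32, SE 0.08, adjusted p = 0.000458). The spread within a group was small in the genes other than Hist1h1e and Fos.

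Some of the stress-response genes that the study described in other preparations of this series passed the test. Of 17 measured genes, 4 were higher in sucrose (23.5%, beside 7.87% of all genes). Toward 1x2000g there was 1 (5.88%, beside 5.21% of all genes), and the median was -0.50. The study chose this list on cells of the same series, so it is not independent evidence of a direction. The immediate early gene Fos had 19.8, 9.59 and 13.2 CPM in 1x2000g against 35, 35.2 and 21.1 CPM in sucrose (-1.13, SE 0.29, adjusted p = 0.0427). Btg2, an antiproliferative early gene, had 73.9, 45.4 and 65.2 CPM against 114, 116 and 101 CPM (-0.87, SE 0.17, adjusted p = 0.0196). Jun, the partner of Fos in AP-1, had 75.6, 89.3 and 84 CPM against 113, 134 and 95.8 CPM (-0.50, adjusted p = 0.034). In all 3 the groups stood apart, though the spread within a group was wide. With single libraries left out the call was lost in 4 of 6 cases for Fos (not without the first 1x2000g or the third sucrose library), in 3 for Btg2 (the third 1x2000g, first and second sucrose library) and in 5 for Jun (not without the third sucrose library), with adjusted p up to 0.125. The chaperone gene Hsp90ab1 was also higher in sucrose (-0.60, adjusted p = 0.0138), with an adjusted p of 0.0516 without the first sucrose library. The inducible heat shock gene Hspa1b had 11.1, 8.34 and 9.01 CPM in 1x2000g and 3.54, 2.8 and 2.83 CPM in sucrose (3.03-fold higher by the fit, adjusted p = 0.00167). All members together came to 595 to 703 CPM in 1x2000g, 714 to 900 CPM in sucrose and 415 to 479 CPM in the 3x500g libraries.

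Antigen presentation genes were higher in sucrose for class II. Of 8 MHC genes, 4 passed as higher in sucrose (50.0%, beside 7.87% of all genes), and the median was -0.47. The 4 were H2-Eb1 (-0.84, adjusted p = 0.0139), Cd74 (-0.73, adjusted p = 0.0363), H2-Aa (-0.73, adjusted p = 0.0157) and H2-Ab1 (-0.69, adjusted p = 0.0232). Cd74, the invariant chain, had 62.8, 88 and 55.1 CPM in 1x2000g against 103, 133 and 97 CPM in sucrose, with no overlap. Of 7 other immune markers, 1 was higher in sucrose (14.3%, beside 7.87% of all genes). It was C1qa, a complement gene of macrophages, with 7.09, 5.93 and 6.62 CPM in 1x2000g against 11, 14.7 and 9.1 CPM in sucrose (-0.86, adjusted p = 0.0231). Macrophage nuclei made up 1.01 to 1.02% of the 1x2000g nuclei and 1.19 to 1.30% of the sucrose nuclei, and their part in these differences was not tested. In sums per class none of the 8 genes passed in edgeR. With single libraries left out, Cd74 lost its call in 5 of 6 cases (not without the second 1x2000g library), H2-Ab1 in 4 (not without the second 1x2000g or the third sucrose library), C1qa in 3 (the second and the third 1x2000g, first sucrose library) and H2-Aa without the third 1x2000g library, with adjusted p up to 0.104. The 4 hemoglobin genes, markers of blood, did not pass (median 0.86), and summed they had 72.4, 172 and 58.6 CPM in 1x2000g against 52.3, 54.9 and 42.7 CPM in sucrose, with the second 1x2000g library far above the rest. Without it the median was 0.28. Members passed as higher in 1x2000g in 3 of 12 classes. These were 3 of 4 in proximal tubule nuclei (2.43% of all genes), 1 of 1 in connecting tubule (1.30%) and 1 of 2 in principal cell nuclei (4.17%). These counts are from fits that include the second 1x2000g library.

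**Figure D2:**
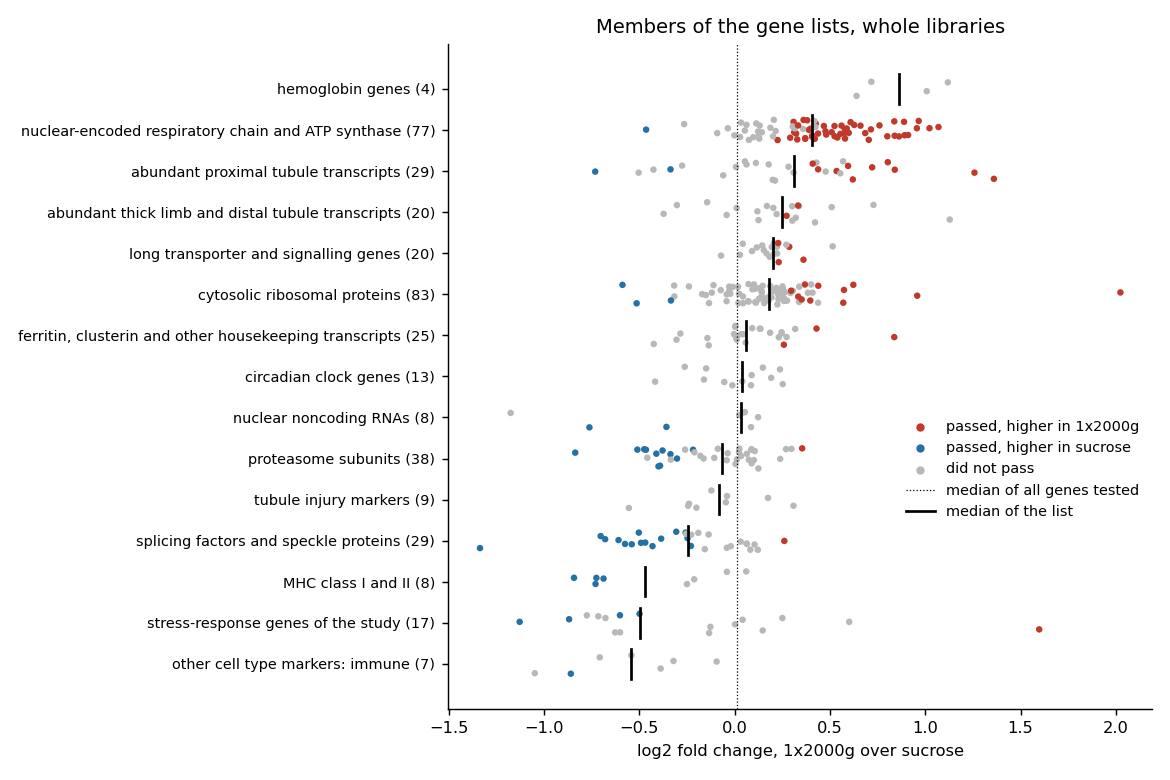
Log2 fold change of 1x2000g over sucrose for each measured member of the 15 gene lists (number of members drawn in brackets, a gene of 2 lists drawn once), with black bars at list medians and a dotted line at the median of all genes. The respiratory chain sits to the right with a median of 0.41, and the speckle and stress-response lists sit to the left with medians of -0.25 and -0.50.

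Genes were then ordered by the log2 fold of fresh cells, which keep their cytoplasm, over 3x500g nuclei, as fitted by edgeR with TMM factors over the genes that both list. This fitted fold lies a median of 1.02 above the log2 ratio of the mean CPM, so a gene at 0 has a lower CPM in cells than in nuclei. Neither set of libraries entered the contrast. Reads within introns were counted for nuclei and not for cells, so the fold also follows the intron content of a gene. Over 9832 genes of at least 10 CPM with a value, 5.70% passed as higher in 1x2000g and 11.7% as higher in sucrose. Among the 442 genes over 4 on the log2 scale, 29.2% were higher in 1x2000g and 3.39% higher in sucrose. Between 0 and 2, the order was the other way, with 2.99% of 2546 genes higher in 1x2000g and 18.8% higher in sucrose. Below -4, among genes with a median span of 237415 bases, 9.84% of 376 were higher in 1x2000g and 2.93% higher in sucrose. Ordered by the ratio of mean CPM instead, a choice made after the data were seen, 40.0% of 205 genes over 4 were higher in 1x2000g and 3.41% higher in sucrose, and between 0 and 2 these were 3.83% and 17.5% of 1672. Elsewhere the direction depended on this choice. Between 2 and 4 the shares were 5.53 and 13.1% by the fitted fold and 11.6 and 7.89% by the ratio. Between -4 and -2 they were 6.29 and 3.21% by the fitted fold and 5.08 and 7.25% by the ratio. In the other bins the direction was the same.

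**Figure D3:**
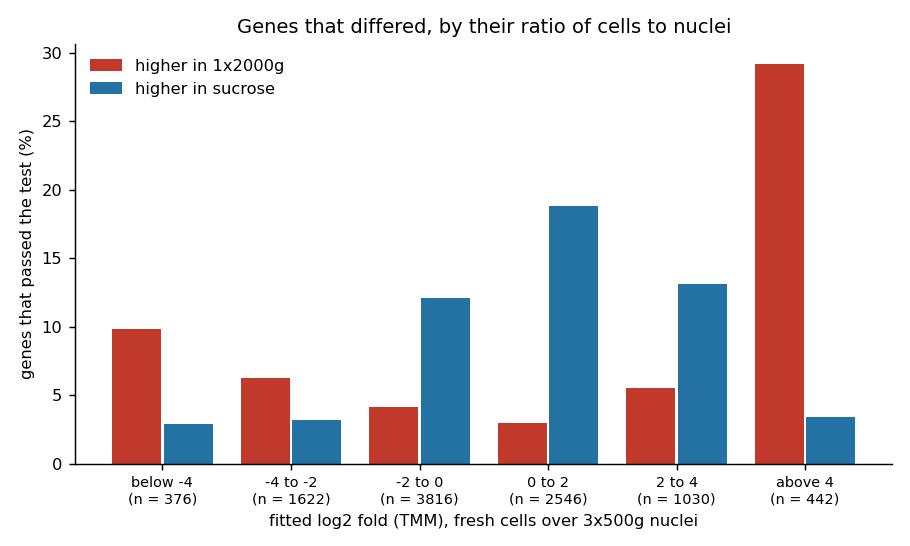
Percent of genes that passed the edgeR test in each direction, in bins of the fitted log2 fold, with TMM factors, of fresh cells over 3x500g nuclei (number of genes in brackets). Genes higher in 1x2000g are most frequent at the right end (29.2%) and again above the middle at the left end (9.84%), and genes higher in sucrose are most frequent between 0 and 2 (18.8%).

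The sets also differed in structure. At 10 CPM and above, genes higher in 1x2000g had a median of 6 exons, genes higher in sucrose 11 and all genes tested 10. Exons filled a median of 14.8% of the span of the former, 24.4% of the latter and 15.5% over all genes. By the annotation, 16.2% of the genes higher in 1x2000g were noncoding, against 1.66% of those higher in sucrose and 4.74% over all. These are descriptions of genes, which are not independent of each other.

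Within classes of nuclei, sums of UMIs per library and class were tested, and a call also needed a difference of 0.5 in the natural log of mean UMIs per 10000 and a UMI in at least 50% of the nuclei of a group, after the thresholds of the study. Of 16177 genes tested in some class, 22 were called higher in 1x2000g in at least 1 class (0.136%) and 18 higher in sucrose (0.111%), and none in both directions. With a log2 fold change of at least 1 in place of these thresholds, the counts were 401 and 455. Between 1 and 8 genes per class were called higher in 1x2000g and between 1 and 10 higher in sucrose. The 10 were called in urothelium, with 13, 25 and 21 nuclei in the sucrose libraries. Of the 22 genes, 6 were among the abundant proximal tubule transcripts, as were 2 of the 18, Slc34a1 and Miox. This list holds 29 measured genes, beside the 16177 tested in some class. A call needs a UMI in at least 50% of the nuclei of a group, which abundant transcripts reach more readily. The share of the list among genes that could reach a call is not given, so no enrichment is read from these counts. Slc34a1 was called in urothelium alone and Miox in proximal tubule nuclei alone. The clusters that make up the proximal tubule class did not fill it alike in the groups. Cluster 0, with Nxph1 and Bbox1 among its leading genes, held 24.5, 21.9 and 28.3% of the nuclei of the class in 1x2000g and 10.1, 14.1 and 20.03% in sucrose. Cluster 4, with Dpys and Slc22a6 among its leading genes, held 13.5, 12.7 and 13.3% against 18.3, 17.0 and 14.7%. Both stood apart, as did the small cluster 52, so that values within the class compare different mixes of its clusters.

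Kap was called higher in 1x2000g in 15 of 15 classes, by 1.04 in proximal tubule nuclei to 1.81 in podocytes on the log2 scale. In proximal tubule nuclei it had 2093, 1421 and 1936 CPM (here of all UMIs of a class in a library) in the 1x2000g libraries and 876, 954 and 783 in the sucrose libraries (1.04, SE 0.16, adjusted p = 0.00796). In endothelial nuclei, which are not known to express Kap, it had 3947, 2580 and 3281 against 1076, 1104 and 908 (1.67, SE 0.13, adjusted p = 7.3307e-07). The 3x500g endothelial nuclei had 210 to 237. In the 14 classes outside the proximal tubule, the ratio of the group means was 2.46 to 3.76, beside 2.09 in the proximal tubule, and no class had an overlap.

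**Figure D4:**
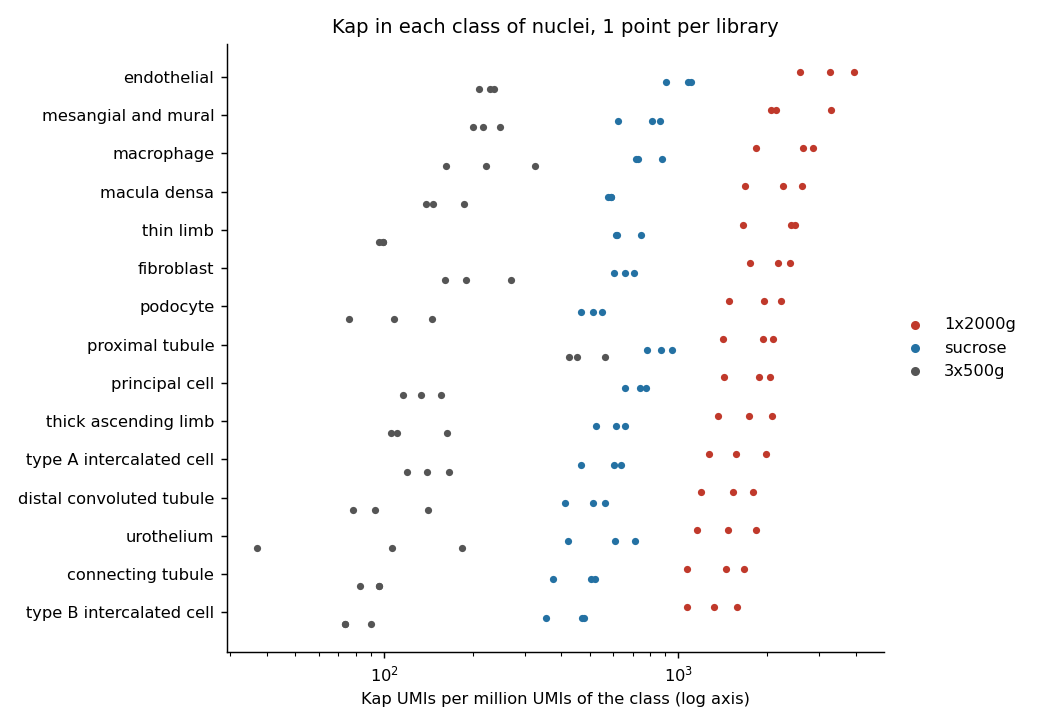
Kap CPM of all UMIs of a class (log axis) in the 15 classes of nuclei, 1 point per library, for 1x2000g, sucrose and 3x500g. In every class the 3 points of 1x2000g lie to the right of the 3 of sucrose, and these to the right of the 3 of 3x500g.

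Napsa, an aspartic protease gene of the proximal tubule, was called in 10 classes and Gpx3, the plasma glutathione peroxidase that the kidney secretes, in 9. Fxyd2, Cox8a and Tmem27 were called in 6 classes each, and Ubb in 3. Over whole libraries Napsa had 677, 857 and 773 CPM against 790, 640 and 736 CPM, with overlap (0.05, adjusted p = 0.75), and in proximal tubule nuclei its log2 fold change was -0.22. Gpx3 had 1980, 1498 and 2039 CPM against 1214, 1426 and 996 CPM and missed the threshold over whole libraries (0.57, adjusted p = 0.0585), which it passed without the second 1x2000g library (0.0342). By the test alone, without the added thresholds, Dbi passed as higher in 1x2000g in 14 of 15 classes, Gpx3 and Ttc36 in 12, and Cox8a, Gpx1 and Chchd10 in 11.

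In the other direction Pnn was called in 9 classes, and passed the test in 14 of 15, with a log2 fold change of -1.67 (macrophage) to -0.83 (thin limb). In proximal tubule nuclei a mean of 46.1% of the 1x2000g nuclei and 68.4% of the sucrose nuclei held a Pnn UMI (-1.27, SE 0.07, adjusted p = 0.000449). Gm42418 was called in 6 classes, Gm26917 in 4 and Btg2 in 2, and Gm42418 passed the test in all 15. Malat1 lay below 0 in 15 classes and passed in 10. Snhg11 passed in 12 of 14 classes, Gps2 in 10 of 13, Son in 10 of 15 and Hist1h1e in 7 of 7.

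Some gene lists kept to 1 side of 0 across classes and others did not. The classes come from the same 6 libraries, and free RNA of a library can enter all of them. They are not independent of each other, so counts of classes, here and above, are descriptions. The respiratory chain had a median above 0 in 15 of 15 classes, from 0.05 in type A intercalated cells to 0.97 in fibroblasts, and in endothelial nuclei 53 of 76 genes passed as higher in 1x2000g and 1 as higher in sucrose. Over all genes tested in endothelial nuclei the percent called was 3.53 and 2.46. In proximal tubule nuclei the counts were 31 and 1 of 77 with a median of 0.33, beside 2.43 and 5.06% of all genes. The speckle list had a median below 0 in 15 of 15 classes, from -0.50 to -0.11, with 11 of 29 genes higher in sucrose and 1 higher in 1x2000g in proximal tubule nuclei. The stress-response list had a median below 0 in 15 classes as well, though members passed in both directions. In principal cells 7 of 15 were higher in sucrose and 3 higher in 1x2000g (4.12 and 4.17% of all genes), in a class that cluster 24, led by Aldh1a3 and Elf5 among others, fills to 23.7 to 34.0% in 1x2000g and 16.1 to 16.7% in sucrose, and 6 classes had a member higher in 1x2000g. The medians of the ribosomal, housekeeping and abundant proximal tubule lists lay above 0 in 15 classes too. Those of the MHC list lay above 0 in 6 classes and below in 9, and those of the proteasome in 4 and 11. Beside these, the median over all genes of a class was -0.01 to 0.02.

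Shares of nuclei with a UMI were compared after each nucleus was thinned to 1000 UMIs, which left out 41 to 181 nuclei per library. Kap was found in 84.7, 72.9 and 80.8% of the 1x2000g nuclei and in 50.2, 50.9 and 44.5% of the sucrose nuclei. Without thinning these were 98.1 to 99.8% and 79.9 to 84.1%. In endothelial nuclei at the same 1000 UMIs the shares were 97, 91.7 and 94.5% against 65.8, 66.7 and 59.4%, and in proximal tubule nuclei 80.2, 67 and 75.3% against 47.4, 50.1 and 43.8%. The share in endothelial nuclei was above that in proximal tubule nuclei in each library. A UMI of Kap thus does not mark a class here and is not read as expression by the nucleus. Endothelial nuclei held fewer UMIs. Relative to the library median, the median was 0.40 in their largest cluster and 1.29 in the largest proximal tubule cluster. Thinning kept a larger part of an endothelial nucleus, so these shares do not compare Kap per nucleus between the 2 classes. Pnn was found in 10.3, 11.4 and 10.9% of the 1x2000g nuclei and in 23.7, 24.6 and 25.4% of the sucrose nuclei at this depth (exact permutation p = 0.1 for each difference). The groups stood apart in both genes, in opposite directions.

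Other abundant proximal tubule transcripts were measured outside the proximal tubule in the same way. The 24 that are no markers of the class had 11460, 8515 and 10502 CPM in endothelial nuclei of 1x2000g and 4282, 4335 and 3512 in those of sucrose, a ratio of 2.51. In thick ascending limb nuclei they had 7046, 5620 and 6691 against 3751, 3988 and 3009. In proximal tubule nuclei they had 12224, 11331 and 12633 against 11076, 10695 and 10187, a ratio of 1.13. In all 14 classes outside the proximal tubule the ratio was above 1 (1.27 to 2.51), and urothelium was the 1 class in which the groups overlapped.

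The 15 marker genes of the proximal tubule, by which the class was named, did not follow that pattern. In thick ascending limb nuclei they had 1230, 1013 and 1111 CPM in 1x2000g and 1615, 1875 and 1170 in sucrose, and outside the proximal tubule the ratio was above 1 in 3 of 14 classes. With nuclei marked as doublets removed, an alternative added after the data were seen, it was above 1 in 10 of 14 classes, and thick ascending limb nuclei had 851, 701 and 753 against 563, 665 and 536. The ratio of the 24 abundant transcripts stayed above 1 in all 14 classes (1.31 to 3.01). Marked doublets made up 2.06, 1.98 and 2.52% of the thick ascending limb nuclei in 1x2000g and 6.66, 6.10 and 4.49% in sucrose. In the proximal tubule the order was the other way, with 6.47, 6.90 and 8.00% in 1x2000g and 2.79, 3.78 and 2.65% in sucrose.

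**Figure D5:**
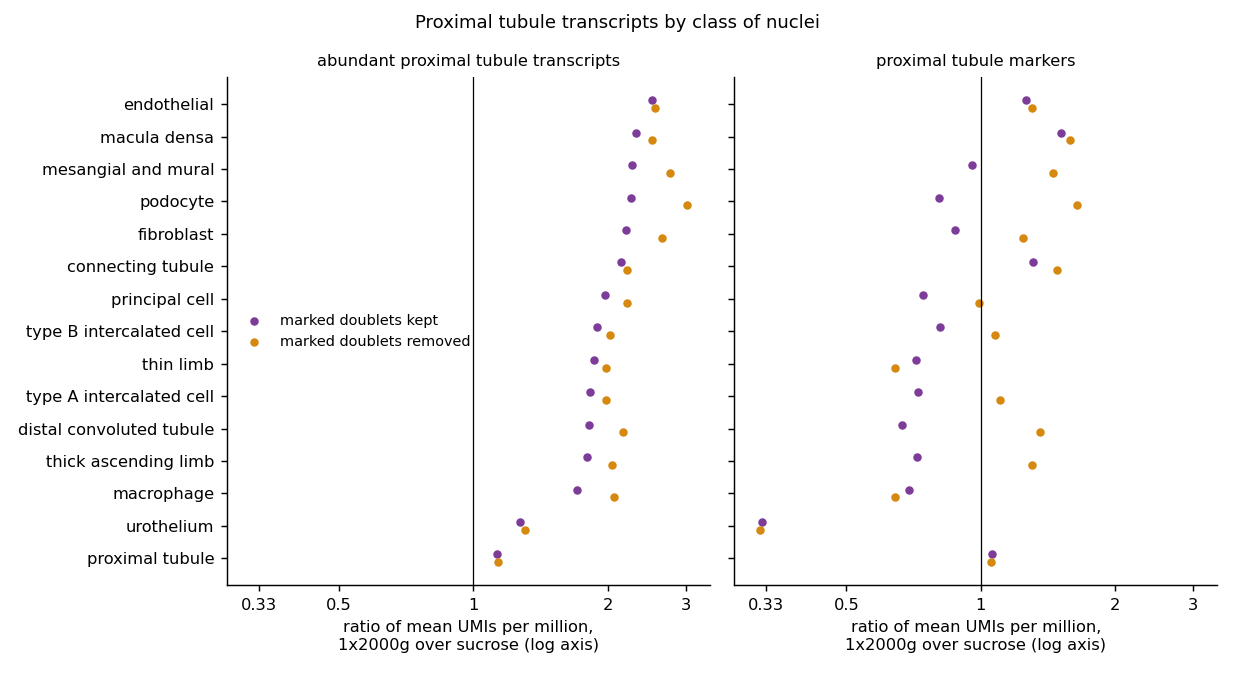
Ratio of the mean CPM of 1x2000g over sucrose (log axis) for 24 abundant proximal tubule transcripts (left) and 15 proximal tubule markers (right) in each class of nuclei, with marked doublets kept or removed. The left ratios lie above 1 in all classes either way, while the right ratios lie above 1 in 3 of the 14 classes outside the proximal tubule with doublets kept and in 10 with doublets removed.

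The share of nuclei that held several of these markers was also compared. With doublets kept, 40, 29.2 and 34.9% of the thick ascending limb nuclei in 1x2000g and 20.9, 20.7 and 18.2% in sucrose held at least 3 of the 15 proximal tubule markers. These shares stood apart although the summed level in thick ascending limb nuclei was no higher in 1x2000g. Connecting tubule nuclei gave 39, 31.6 and 35.2% against 16, 17.3 and 17.6%, and there the summed level was higher too, with 748, 619 and 670 against 512, 579 and 463 CPM. The mean share was higher in 1x2000g in all 14 classes outside the proximal tubule, but the groups overlapped in 7, among them macrophages and urothelium, and in 3 with doublets removed. The nuclei were not thinned here, and their median UMIs differed 1.15-fold between the protocols over all classes.

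The protocol difference was tested directly between the largest tubular classes, as the log2 fold change in proximal tubule minus that in thick ascending limb nuclei. Of 15196 genes, 192 had a difference further toward 1x2000g in the proximal tubule (1.26%) and 53 further toward 1x2000g in the thick ascending limb (0.349%). Of the 192 genes, 187 had the higher mean in proximal tubule nuclei and 143 passed as higher in sucrose in thick ascending limb nuclei, where their median log2 fold change was -0.88. With marked doublets removed 15 such genes were found in place of 192, and 63 in place of 53 in the other direction. The interaction of Gramd1b then fell from 1.35 to 0.55 and no longer passed, and that of Dab2 fell to 0.65. The genes with the smallest p were Gramd1b, Dab2, an endocytic adaptor of megalin, and the nuclear receptor Hnf4g on the one side and genes that included Gm5424 and Napsa on the other.

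Napsa had 3.89, 4.26 and 3.45 UMIs per 10000 in thick ascending limb nuclei of 1x2000g and 2.13, 1.47 and 1.29 in those of sucrose. In proximal tubule nuclei it had 8.66, 11.8 and 10.4 against 12.6, 9.78 and 12.4. Its protocol difference was further toward sucrose in the proximal tubule (interaction -1.19, SE 0.14, adjusted p = 0.00020423). Dab2 had 1.01, 0.797 and 0.875 against 1.55, 1.93 and 1.23 in thick ascending limb nuclei, and 36.9, 31.5 and 29.4 against 27.2, 32.7 and 23.2 in proximal tubule nuclei (interaction 1.22, SE 0.11, adjusted p = 5.5969e-05). The groups of both genes stood apart in the thick ascending limb, and both overlapped in the proximal tubule.

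Of the 15 named classes, 6 stood apart between the groups in their share of nuclei and the largest did not. Proximal tubule nuclei, named by Slc34a1, Lrp2 and 13 other markers, made up 42.6, 42.8 and 43.1% of the 1x2000g nuclei and 43.1, 44.4 and 39.4% of the sucrose nuclei. Endothelial and thick ascending limb nuclei followed, with 12.7 to 17.0% and 10.4 to 15.3% over the 6 libraries, and all 3 classes overlapped between the groups. Of the 16 groups tested, the unnamed nuclei among them, urothelium alone passed, the lining of the renal pelvis, with 0.634, 0.449 and 0.910% against 0.163, 0.269 and 0.278% (log2 ratio 1.49, SE 0.31, adjusted p = 0.021). It rests on 13 to 83 nuclei per library and did not pass without any 1 sucrose library (adjusted p up to 0.0911). An unnamed cluster with Psca, a urothelial marker, among its leading genes, and with 5 thin limb markers, held 0.567, 0.656 and 0.439% against 0.225, 0.602 and 0.688%. Counted with the urothelium, a choice made after the data were seen, it gave 1.20, 1.11 and 1.35% against 0.388, 0.870 and 0.966%, and the difference did not pass (log2 ratio 0.71, SE 0.27, adjusted p = 0.0715). Whether a kidney brought more pelvis into the tube was not tested. In the sucrose libraries, urothelial nuclei also carried 3800, 2690 and 868 CPM of proximal tubule markers, against 720, 658 and 999 in 1x2000g.

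Thin limb, principal cell, podocyte and macula densa nuclei had higher shares in every 1x2000g library than in any sucrose library, and macrophages lower shares, with adjusted p of 0.064 to 0.0677 for the 5 classes. Podocytes, the filtering epithelium of the glomerulus, made up 0.745, 0.802 and 0.823% against 0.664, 0.612 and 0.608% (log2 ratio 0.33, SE 0.11). Principal cells of the collecting duct made up 4.13, 4.17 and 4.21% against 3.68, 3.08 and 3.69% (0.26, SE 0.09). Within them cluster 24, with Aldh1a3 and Elf5 among its leading genes and with 4 thin limb markers beside 7 of principal cells, made up 1.40, 1.38 and 0.998% of all nuclei against 0.601, 0.516 and 0.595%. The other principal cell clusters made up 2.72, 2.78 and 3.21% against 3.08, 2.57 and 3.10%, with overlap. The differences for these classes did not pass the threshold.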

How the data were processed

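The 1x2000g, sucrose and 3x500g nuclei were 10x 3′ libraries, and the authors aligned their reads with Cell Ranger 2.1.1 to mm10 with introns and exons as transcripts, separated nuclei from empty droplets with EmptyDrops, kept genes seen in at least 10 nuclei, and filtered barcodes on genes, UMIs and mitochondrial share. Mitochondrial genes were removed. As deposited, each of the 6 libraries holds 59 to 206 genes that are above 0 in fewer than 10 nuclei. The deposited values are raw counts of UMIs for each gene in each barcode. Fresh cells (exonic counts) and intact bulk kidney (deposited read counts) gave reference levels only.

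Counts were summed per library, or per library and class, and tested with edgeR 4.0.16 (TMM, filterByExpr, quasi-likelihood test, Benjamini-Hochberg over all genes tested), with 3 libraries a group. The kidneys of a group came from different mice, and each kidney gave its own library. P-values therefore rest on the spread between libraries, in which kidney, preparation and library are mixed. Kidney and protocol cannot be told apart. Nuclei per class were tested in the same way against library totals. CPM are scaled by library totals alone, and the fitted folds use TMM factors of 0.98 to 1.03. Nuclei were clustered with leidenalg 0.10.2 (resolution 2, 2000 variable genes, 30 components, 20 neighbors) into 64 clusters, named from at least 3 markers. Doublets were marked against simulated pairs at 0.8% per 1000 barcodes. Gene positions, spans and exons came from GENCODE for GRCm38, matched for 16861 of 17500 genes, and reads of overlapping genes and paralogs may be shared.

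The contrast, the 15 gene lists and the markers were chosen with earlier results of these data known. Genes were named by rule: the 10 largest strong changes in each direction at 10 CPM or more, genes called in most classes, the most abundant members of a list and the smallest p of the interaction. Passing members of a list beyond these were named after their values were seen. Alternatives were DESeq2 1.42.0, RLE factors, library totals, no filter, the 3x500g libraries in the fit, resolution 1, clustering without strong genes, doublets removed and each library left out. The tests were also run on simulated data. Each nucleus can hold free RNA, and doublets were kept in the main results. Some genes that these rules name are not reported here.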

Additional observations from a re-analysis of the deposited data

Results flagged for a closer look

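The protocol difference was unequal in proximal tubule and thick ascending limb nuclei for 192 genes that lay further toward 1x2000g in the proximal tubule and for 53 genes that lay further toward 1x2000g in the thick ascending limb. Both counts come from a test of the difference itself, with library as a block, and the first falls to 15 with marked doublets removed. On the first side the differences of the genes with the smallest p were 1.35 for Gramd1b, 1.22 for Dab2 and 1.34 for Hnf4g. On the second side they included -1.65 for Gm5424 and -1.19 for Napsa. Gramd1b had 0.468, 0.407 and 0.472 UMIs per 10000 in thick ascending limb nuclei of 1x2000g against 0.958, 0.789 and 0.893 in those of sucrose, and 20.9, 18.4 and 19.4 against 18.2, 16.3 and 18.3 in proximal tubule nuclei. Without marked doublets the difference of Gramd1b was 0.55 and no longer passed. Groups of 3 libraries are too small for a test of single outlying libraries.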

How the results depend on the processing

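No paired analysis was possible because the labels give the libraries no replicate numbers, and the numbers used here only name them. Leaving out each library in turn also lowers the power of the tests. It gave 284 to 459 genes higher in 1x2000g and 644 to 861 higher in sucrose, of which 29 to 83 and 31 to 56 were strong. These fits also gave 21 to 29 and 12 to 24 genes called in a class, 0 to 3 classes with a changed share, and 107 to 192 and 25 to 52 genes in the interaction. Strong genes higher in 1x2000g were 37 with DESeq2 and 54 with genes above 0 in all libraries. With a log2 fold change of at least 1 in place of the thresholds of the study, 401 and 455 genes were called in a class. Clustering without strong genes gave 3 classes with a changed share, the urothelium counted with the unnamed cluster 0 in edgeR (7 at an unadjusted p under 0.05), all nuclei outside the proximal tubule gave 93 genes on the second side of the interaction, and removal of doublets 15 on the first. Without TMM factors, 54.2% of the passing genes were higher in 1x2000g in place of 39.8%. Leaving out single libraries turned values near 0: the medians of 4 lists (housekeeping, nuclear noncoding, circadian and injury), Napsa -0.023 to 0.124, Slc12a1 -0.035 to 0.255, and the log2 share ratios of connecting tubule (-0.111 to 0.0086), endothelial (-0.045 to 0.165), proximal tubule (-0.030 to 0.055) and thick ascending limb nuclei (-0.172 to 0.0957). With doublets removed the last 2 were -0.037 and 0.016. Without the third 1x2000g library, thin limb and fibroblast shares passed beside urothelium. Of 60 named genes, 7 to 16 lost their call without a single library, 4 with the 3x500g libraries in the fit and none with DESeq2, RLE factors, library totals or no filter. Keeping all genes listed for any library changed nothing, since all nuclei files list the same 18679 genes. Urothelial and other small classes, and genes below 10 CPM, are limited by depth.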

Other observations

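Proteasome subunits, which degrade ubiquitinated proteins, were higher in sucrose for 11 of 38 genes and higher in 1x2000g for 1. These were 28.9 and 2.63% of the list, beside 7.87 and 5.21% of all genes. The median was -0.07 (-0.03 to -0.08 with single libraries left out). Psmc4, an ATPase of the regulatory particle, had 10.8, 9.4 and 9.58 CPM in 1x2000g and 18.1, 17.7 and 16.1 CPM in sucrose (log2 fold change -0.84, adjusted p = 0.0024). The exception, the catalytic core subunit Psmb4, had 13.8, 14 and 15.2 CPM against 10.8, 11.9 and 10.1 CPM (0.35, adjusted p = 0.0362), a call lost in 5 of 6 cases with single libraries left out (all but the second sucrose library, adjusted p up to 0.102). The 11 genes had a median of 2952 exonic bases, and the 26 that did not pass 2810.

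Of 20 long transporter and signalling genes, 4 were higher in 1x2000g and none passed as higher in sucrose (median 0.20). Their sum was 27844, 26885 and 25360 CPM in 1x2000g, 22824, 22009 and 22367 CPM in sucrose and 33461 to 36640 CPM in the 3x500g libraries, with no overlap between any of the protocols. Of 13 circadian clock genes and 10 measured tubule injury markers none passed in edgeR. Their medians, 0.04 and -0.08, turned to -0.16 and 0.03 without the second 1x2000g library.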
